A study of Mus musculus with 12 samples.

Results

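Expression of Dek was lowered in one set of primary entorhinal cortex (EC) neuron cultures and raised in another, and the response of each gene to loss was set against its response to gain. The measure was the difference of responses, (silencing − scrambled) − (overexpression − empty vector), on the log2 scale, taken from one fit of 4 groups of 3 libraries, so that all 12 of the 12 RNA-seq libraries entered. A negative difference belongs to a gene that followed Dek, lower after loss or higher after gain, and a positive difference to a gene that went against it. The cultures came from C57BL/6J mouse embryos at embryonic day 17, grown in medium with 2% B27 supplement. Adeno-associated virus was added on day 7 in vitro at 1e+10 genomes per ml, and RNA was taken after another 4 days. The silencing group received AAV1-mCherry-U6-mDEK-shRNA, a hairpin against mouse Dek, and its scrambled control received AAV1-mCherry-U6-scrmb-shRNA. The overexpression group received AAV1-hSyn1-mDEK-IRES-mCherry, a mouse Dek cDNA, and its empty vector control received AAV1-hSyn1-mCherry-WPRE. All 12 cultures were therefore transduced and carried mCherry, and no untransduced culture was analysed here. The U6 promoter of the hairpin is active in any transduced cell and the human synapsin promoter of the cDNA mainly in neurons, and the empty vector carries a WPRE element, which stabilizes transcripts and is not part of the name of the cDNA vector. The replicates were wells, and since nothing says that wells of a group came from separate dissections, the p-values measure the spread between wells only.

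DEK is an abundant chromatin protein that binds DNA and histones, acts as a histone chaperone and takes part in replication, repair and RNA splicing. In neurons of the EC, a cortical region affected early in Alzheimer's disease, the study examined it as a candidate regulator of vulnerable cells. A gene that DEK controls in a graded way would be moved in opposite directions by the hairpin and by the cDNA, and both arms were measured here with the same assay.

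The files held estimated counts for 24100 genes, with totals of 15679567 to 17981481 per library in silencing and of 17078551 to 18933382 in the other 9 libraries, and 14604 genes had enough counts to be tested. Levels are given as counts scaled by library size and TMM factors (CPM). Excitatory neuron markers summed to 515.3 to 610.5 CPM in the hairpin experiment and 729.8 to 790.8 CPM in the cDNA experiment. GABAergic markers summed to 3619.2 to 4684.5 CPM in all 12 libraries, and microglia markers to at most 25.8 CPM. Astrocyte markers summed to 453.1 to 883 CPM over the 12 libraries, with 0 of 10 called in silencing, beside 56.0% of all genes. Progenitor and cycling cell markers summed to 258.6 to 450.6 CPM, with 3 of 9 called higher and 1 lower in silencing, beside 27.9% and 28.1% of all genes. Oligodendrocyte markers summed to 82.4 to 89.8 CPM in silencing, above the 30.8 to 41.2 CPM of the scrambled control, and to 41.8 to 53.4 CPM in overexpression and 44.6 to 45.6 CPM in the empty vector control. Of the 5 genes tested, 4 were higher in silencing and 1, Mog, lower, beside 27.9% and 28.1% of all genes. Oligodendrocyte precursor markers summed to 92.9 to 200.8 CPM in silencing and 62.3 to 110.6 CPM in its control (5 of 6 called higher, beside 27.9% of all genes). In the cDNA experiment they summed to 52.2 to 83.8 CPM. Endothelial and mural markers were at 9.3 to 10 CPM in silencing and 3.3 to 4.3 CPM in its control (1 of 3 called, beside 56.0% of all genes). Cajal-Retzius and layer II markers were at 1320 to 1672.2 CPM in the hairpin and 748.3 to 963.7 CPM in the cDNA experiment. The part of these cell types in the results below was not tested, and in these bulk libraries fewer cells of a type and less RNA per cell cannot be told apart. The scrambled and empty vector controls differed in 5445 genes (37.3% of those tested, edgeR adjusted p below 0.05), so each virus was compared with its own control. Against the empty vector in place of the scrambled control, silencing would call 9751 genes (66.8%).

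The hairpin targets 21 bases of the Dek coding sequence, in exon 6 of 11, at chr13:47099377-47099397 on the minus strand (GRCm38). The letters below show this site first and then the first match to its heptamer AAGAGGA in the 3′ UTR of 3 genes that were far lower in silencing and of 1 gene, Npas2, whose values were lower with both viruses than with their controls. Capitals mark the heptamer, bases 11 to 17 of the Dek site. They are shown because this heptamer, which was picked in earlier work on these data, was more frequent in the 3′ UTRs of genes lower in silencing, as given further on. Outside the heptamer, 2 to 5 of the 14 bases of these 4 windows were the same as in Dek.
Dek: cgaactcgtgAAGAGGAtctt
Npr3: aacacccaatAAGAGGAcaat
Tmcc2: ctgggttgacAAGAGGAtgct
Chd3: gcctcccttcAAGAGGAcccc
Npas2: atataattatAAGAGGAagtg
These windows lie on GRCm38 at chr15:11844745-11844765 (Npr3, minus strand), chr1:132357201-132357221 (Tmcc2, minus), chr11:69344188-69344208 (Chd3, minus) and chr1:39363036-39363056 (Npas2, plus), each in the last exon.

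Dek RNA was the check of both arms, and DEK protein was not measured in these libraries. The level of Dek was 7.98, 6.65 and 8.62 CPM in the 3 silenced libraries and 35.2, 36.6 and 36.4 CPM in the scrambled control. With the cDNA it was 156, 129 and 143 CPM, and 36.0, 38.8 and 41.1 CPM with the empty vector. All silenced libraries were below and all overexpressing libraries above the 6 controls, and the counts in overexpression include transcripts of the virus. The log2FC was −2.22 (SE 0.10, edgeR adjusted p = 3.4e-12) in silencing and 1.88 (SE 0.08, adjusted p = 1.4e-10) in overexpression, and the difference was −4.10 (SE 0.13, adjusted p = 5.7e-13). In size, the rise was 0.849 of the fall on the log2 scale.

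Across all genes, 6287 of 14604 (43.0%) had a difference past the test, 2972 positive (20.4%) and 3315 negative (22.7%). With scaling by library size alone the split was 3755 positive and 2733 negative. In most of these genes the silencing arm made up the difference. Of the 6287 genes, 97.4% were also called in silencing, and for 85.5% the 95% interval of the overexpression response lay wholly within −0.5 to 0.5. Silencing by itself changed 8179 genes (56.0%; 4077 higher, 27.9%, and 4102 lower, 28.1%), or 5042 higher and 3401 lower with scaling by library size alone. Overexpression changed 1 gene, Dek (0.00685% of genes), by edgeR and by limma-voom, with 738 genes (5.05%) at an unadjusted p below 0.05 by edgeR, 319 higher (2.18%) and 419 lower (2.87%). The 5.05% is near the share that this threshold passes where no gene responds. DESeq2 called 2, Dek and Iqsec3, which encodes a guanine nucleotide exchange factor of inhibitory synapses. Iqsec3 was at 94.2, 92.6 and 93.3 CPM with the cDNA and 113, 112 and 116 CPM with the empty vector, with no overlap, a log2FC of −0.28 (adjusted p = 0.63 by edgeR and 0.044 by DESeq2), and at 0.01 (SE 0.06) in silencing.

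A direct test of opposition, in which both responses had to differ from 0 with opposite signs, called 1 gene of 14604, Dek, with edgeR, DESeq2 and limma-voom. The same test for equal signs called 0 genes with each of these tools. The p of these tests is never below that of the overexpression response. With edgeR and limma-voom they could therefore call only Dek, the gene called in overexpression, and with Dek opposed the count for equal signs had to be 0. Their outcome restates the overexpression calls and is not separate evidence. At an unadjusted p below 0.05 in both arms, edgeR found 292 genes with opposite and 198 with equal signs, DESeq2 229 and 145, and limma-voom 291 and 213. Dek was thus the 1 gene whose signed response in both manipulations passed a test, and the other genes below are described as candidates. The 2 responses share no library.

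**Figure D1:**
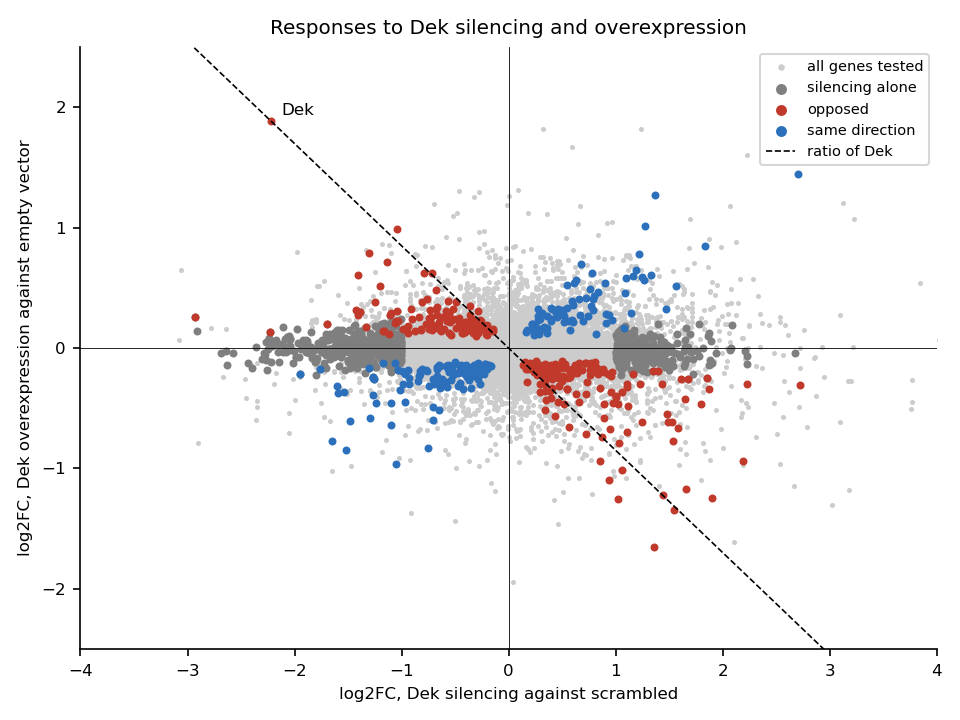
log2FC of each gene tested in Dek silencing against scrambled (x axis) and in Dek overexpression against empty vector (y axis), with candidate opposed genes in red, candidate same-direction genes in blue, silencing-alone genes in dark grey and a dashed line where a gene would lie if both its responses stood in the ratio of those of Dek. Dek lies alone at the upper left, the genes with large silencing responses lie along the horizontal line at 0, and 7 genes fall outside the axes.

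The precision of the overexpression arm bears on how this reads. The median SE of a log2FC was 0.10 in either arm, and the median half-width of the 95% interval in overexpression was 0.208. If a gene answered the cDNA in proportion to Dek, a fall of 1 in silencing would go with a rise of 0.849. This ratio is one of RNA, which includes transcripts of the virus. The paper reports a fall of DEK protein with the hairpin and gives no DEK protein level with the cDNA. The proportion is therefore to Dek RNA, and the gain in protein is not known here. Silencing moved 1569 genes by more than 1 (725 lower and 844 higher), and for 91.6% of them the overexpression interval did not contain the value in proportion to Dek, while for 132 genes it did. This takes the silencing log2FC as free of error. The sum of both responses with silencing weighted by 0.849, which counts the error of both arms, differed from 0 for 1228 of the 1569 (78.3%, edgeR adjusted p below 0.05). The sign of the overexpression response was opposite to that of silencing for 811 of the 1569. Across all genes the 2 responses had a Pearson r of −0.028 and a Spearman rho of −0.052, and r was −0.068 among the genes called in silencing. These are descriptions across genes, which are not independent.

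The overexpression response was also counted by what silencing had done to the gene, as a description. An unadjusted p below 0.05 was seen for 5.58% of genes lower in silencing, 5.79% of genes higher in silencing and 4.25% of genes not called. Of the genes lower in silencing 53.3% had an overexpression log2FC above 0, and of the genes higher in silencing 55.2% had one below 0. Beyond a silencing log2FC of 1 these shares were 50.1% and 53.1%, so they were not larger for the genes that moved furthest. The genes higher by more than 1 were at a median of 2.4 CPM, against 23 CPM for all genes called higher. Their overexpression quartiles were −0.19 and 0.15, against −0.09 and 0.06, so the sign was less certain. Genes lower by more than 1 were at 35.1 CPM, against 46.4 CPM. The part of expression level was not tested. The median overexpression log2FC was 0.01 in genes lower and −0.01 in genes higher in silencing.

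Candidate opposed genes were those called in silencing and in the difference, with an overexpression response of opposite sign at an unadjusted p below 0.05. There were 277 (1.90% of genes tested), 120 lower (0.822%) and 157 higher (1.08%) in silencing. Since the responses chose them, the values that follow are descriptions, with no test. The overexpression responses were small, under 0.25 in size for 171 of the 277 and above 0.5 for 34. Apart from Dek, the smallest edgeR adjusted p of these responses was 0.848. The size of the overexpression response was a median of 0.458 of that in silencing. The sum of both responses, which is 0 for a gene moved equally and oppositely, missed the threshold for 162 of the 277, and the interval contained the value in proportion to Dek for 136. The libraries of both comparisons did not overlap for 96 of the 120 and 108 of the 157, beside 7.11% of all genes. Taken singly, silencing and scrambled libraries did not overlap for 60.9% of all genes, and overexpression and empty vector libraries for 11.6%. By the edgeR model, the threshold was passed narrowly by Cand2 and Dyx1c1, both at an unadjusted p of 0.0499 with overexpression log2FC of −0.26 and 0.41. It was missed by Casz1 and Fjx1, both at 0.0502 in the same edgeR model with log2FC of −0.47 and −0.21. In all 12 fits that left out 1 library, 33 of the 277 remained in the class (15 lower and 18 higher in silencing).

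Among the 120 candidates that were lower in silencing, Filip1 ranked next after Dek by the smaller of its responses. It encodes a filamin-binding protein that acts on the migration of cortical neurons. Filip1 was at 4.45, 4.09 and 3.51 CPM in silencing and 7.83, 9.65 and 10.1 CPM in the scrambled control. With the cDNA it was at 11.3, 12.1 and 12 CPM, against 10.2, 7.53 and 7.15 CPM with the empty vector. Neither pair of groups overlapped, which the naming rule required of every opposed and same-direction gene it named, so it is no separate finding. The log2FC of Filip1 was −1.20 (SE 0.16) in silencing and 0.51 (SE 0.14) in overexpression. Zfp40, a zinc-finger protein gene, was at 7.86, 6.27 and 6.01 CPM against 17.1, 18.1 and 18.8 CPM in the hairpin cultures. In the cDNA cultures it was at 19.2, 17.4 and 20.7 CPM against 15.2, 15.6 and 15.1 CPM. Its fall was the steeper of its 2 responses, with a log2FC of −1.43 (SE 0.11) and 0.32 (SE 0.10). Rab40b, a small GTPase of the Rab family, was at 12.7, 13.7 and 16.9 CPM in silencing and 23.3, 21.1 and 25 CPM in its control. It was at 21.7, 20.4 and 19.5 CPM with the cDNA and 17.6, 15.9 and 15.8 CPM with the empty vector. The log2FC of Rab40b was −0.68 (SE 0.11) and 0.32 (SE 0.11). These 3 genes and Dek stayed in the class in each of the 12 fits that left out 1 library, and the other 6 named by the rule did not.

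Those 6 were Fam188b, Egr3, 1700030K09Rik, Fam19a1, Abca8a and Wdpcp, with silencing log2FC between −0.91 and −0.36 and overexpression log2FC between 0.31 and 0.39. Wdpcp takes part in planar cell polarity and cilia, Abca8a is a lipid transporter and Fam19a1 a secreted neuronal protein. Egr3, an activity-regulated transcription factor, showed how far the 2 experiments stood apart at baseline. Egr3 was at 4.58, 6.05 and 5.48 CPM in silencing and 6.87, 6.14 and 7.70 CPM with the scrambled hairpin. In the cDNA experiment it was at 25.7, 27.4 and 24.5 CPM with Dek and 22.5, 21.5 and 16.9 CPM with the empty vector. The groups did not overlap in either experiment, as the naming rule required, and the responses were −0.36 (SE 0.15) and 0.35 (SE 0.11). The scrambled minus empty vector difference of Egr3 was −1.55 on the log2 scale, larger in size than either response.

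Among the 157 candidates that were higher in silencing, Trappc6a came first. It encodes a subunit of the TRAPP complex, which tethers vesicles to the Golgi. Trappc6a was at 20.5, 25 and 25.5 CPM in silencing and 16.6, 18.2 and 14.9 CPM in the scrambled control. With the cDNA it was at 10, 11.4 and 6.89 CPM and with the empty vector at 14.2, 11.7 and 13.2 CPM. The cDNA libraries were the lowest of the 4 groups and the silenced libraries the highest, with log2FC of 0.52 (SE 0.14) and −0.47 (SE 0.15). Flywch2 had the same shape with little spread among its empty vector libraries, at 20.6, 21.4 and 22.4 CPM in silencing, 18.1, 15.2 and 15.6 CPM with the scrambled hairpin, 9.90, 10.2 and 7.52 CPM with the cDNA and 12.2, 12.3 and 12.4 CPM with the empty vector. Its responses of 0.40 (SE 0.11) and −0.42 (SE 0.12) were nearly equal in size. Plekhh3, a gene with a pleckstrin homology domain, was at 29.3, 29.2 and 32.1 CPM against 22.1, 17.8 and 18.7 CPM, and at 17.5, 16.9 and 14.4 CPM against 20.9, 20.7 and 22 CPM. Its log2FC was 0.63 (SE 0.09) and −0.38 (SE 0.10).

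For some genes of this group the silencing log2FC was much larger in size than the overexpression log2FC. Akain1, which encodes an inhibitor of the anchoring of protein kinase A, was at 26.2, 24.5 and 17.3 CPM in silencing and 7.32, 6.32 and 5.86 CPM in its control. It was at 5.48, 4.44 and 4.65 CPM with the cDNA and 6.78, 6.52 and 6.82 CPM with the empty vector. The log2FC of Akain1 was 1.80 (SE 0.15) and −0.46 (SE 0.17), and that of Cyp4f16, a cytochrome P450, was 1.65 (SE 0.13) and −0.43 (SE 0.16). The other 5 named by the rule were Phf21b, Grasp, Fam222a, Adamts5 and Armc5. Phf21b, a PHD-finger chromatin protein, was at 0.89 (SE 0.15) and −0.46 (SE 0.17), and Grasp, a scaffold of postsynaptic glutamate receptors, at 0.72 (SE 0.15) and −0.38 (SE 0.17). Adamts5, a protease of the extracellular matrix, was at 0.35 (SE 0.13) and −0.43 (SE 0.13). It was one of 16 genes of the 157 for which the response to gain was the larger.

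**Figure D2:**
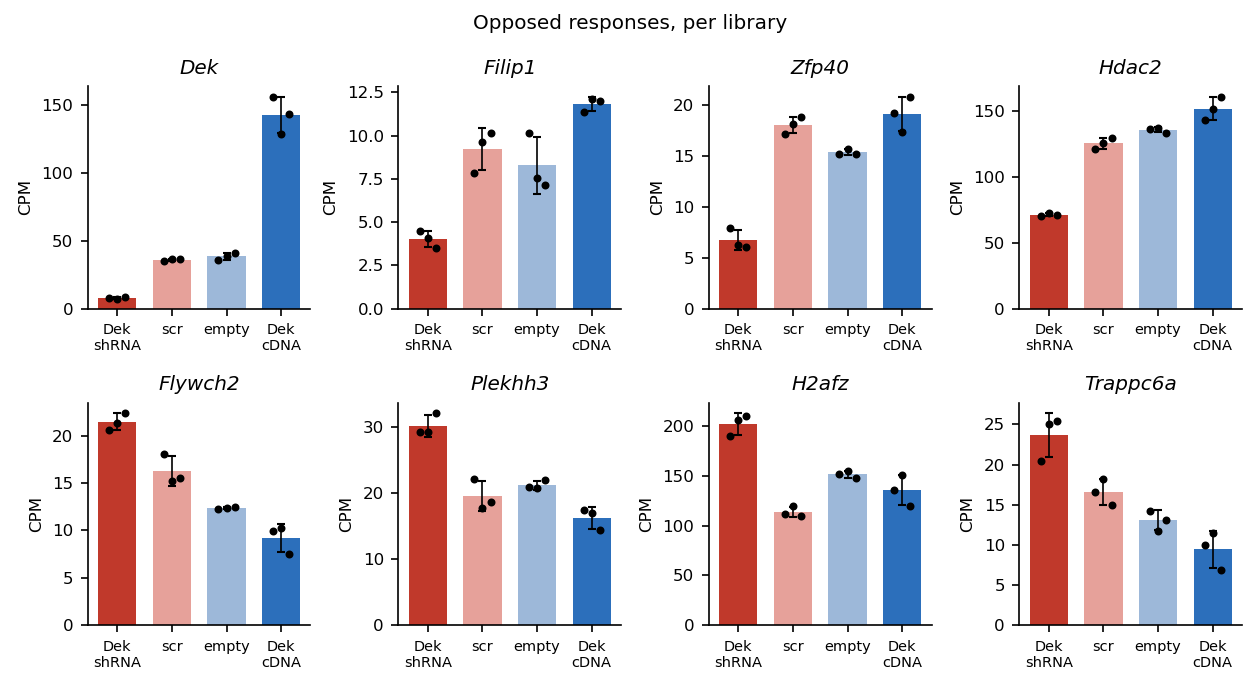
CPM (y axis, linear from 0, TMM-normalized) of 8 genes with opposed responses in the 4 groups (x axis), with bars for group means of 3 libraries, whiskers for 1 SD and a dot per library. For Dek, Filip1, Zfp40 and Hdac2 the silenced libraries are lower and the cDNA libraries higher than their own controls, and for Flywch2, Plekhh3, H2afz and Trappc6a the silenced libraries are higher, while the cDNA libraries of H2afz overlap those of its control.

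The list of histone chaperones and variants held 2 candidate opposed and 1 same-direction gene of 30 tested, and that of chromatin remodellers, acetylation enzymes and readers 2 and 1 of 42, beside 1.90% and 1.29% of all genes. The 4 opposed genes are described here, named after their values were seen. Hdac2, a histone deacetylase, was at 70.3, 72.8 and 70.7 CPM in silencing and 122, 126 and 129 CPM in its control. With the cDNA it was at 143, 152 and 161 CPM and with the empty vector at 136.5, 137.1 and 133.6 CPM. Neither pair overlapped, with log2FC of −0.82 (SE 0.05) and 0.16 (SE 0.05). Smarca2, an ATPase of the SWI/SNF complex, was at −1.17 (SE 0.07) and 0.14 (SE 0.06), and Anp32a, which binds histones and inhibits their acetylation, at −0.74 (SE 0.07) and 0.16 (SE 0.06). H2afz, which encodes the histone variant H2A.Z, went the other way, at 190, 207 and 211 CPM in silencing and 112, 120 and 110 CPM in its control, and at 136, 151 and 120 CPM with the cDNA and 152, 156 and 148 CPM with the empty vector. Its log2FC was 0.83 (SE 0.07) and −0.16 (SE 0.07), and its cDNA and empty vector libraries overlapped. In each of these 4 genes the response to gain was under 0.2 in size.

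Of 30 histone chaperones and histone variant genes tested, 26 had a difference past the test, 7 positive and 19 negative, which is 86.7% beside 43.0% of all genes. All 26 were called in silencing in the same direction. In overexpression 1 of the 30 was higher and 2 lower at an unadjusted p below 0.05, beside 2.18% and 2.87% of all genes. The list's median log2FC was −0.54 in silencing and 0.03 in overexpression, beside 0.01 and 0.00 over all genes. Supt6, a chaperone that travels with RNA polymerase II, was at 50.5, 50.1 and 59.3 CPM in silencing, 151, 144 and 147 CPM with the scrambled hairpin, 155, 148 and 149 CPM with the cDNA and 146, 140 and 153 CPM with the empty vector. It was thus low in the silenced libraries and at 140 to 155 CPM in the other 9. Nap1l1, a nucleosome assembly protein, had log2FC of −0.96 (SE 0.05) and 0.08 (SE 0.05), Anp32b −1.58 (SE 0.08) and 0.11 (SE 0.08), and Atrx, a chromatin remodeller, −1.06 (SE 0.09) and 0.06 (SE 0.08). Chaf1b and Asf1b, histone chaperones of chromatin assembly, had positive differences of 1.57 (SE 0.34) and 1.18 (SE 0.35), with values of 0.34 and 0.45 in overexpression. Of 9 progenitor and cycling cell markers, 3 were also higher in silencing and 1 lower, beside 27.9% and 28.1% of all genes. Their part here was not tested.

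Silencing-alone genes were those with a silencing log2FC beyond 1, a called difference and an overexpression interval wholly within −0.5 to 0.5. There were 788 (5.40% of genes tested), 541 lower (3.70%) and 247 higher (1.69%), and their overexpression log2FC lay between −0.26 and 0.30. Before the interval was required, the genes beyond 1 were 725 lower and 844 higher, at a median of 35.1 and 2.4 CPM. The part of expression level in this split was not tested, so it is not read as a direction of silencing-only responses. With scaling by library size alone 427 were lower and 329 higher. Here too the responses chose the genes. In all 12 fits that left out 1 library, 521 of the 788 remained. Chd3, an ATPase of the NuRD remodelling complex, was at 76.8, 77.9 and 87.8 CPM in silencing and 469, 519 and 529 CPM in the scrambled control. It was at 579, 595 and 612 CPM with the cDNA and 655, 594 and 565 CPM with the empty vector. The silenced libraries were far below the other 9, and the cDNA and empty vector libraries overlapped. The difference was −2.62 (SE 0.09), made of −2.64 in silencing and −0.02 (95% interval −0.16 to 0.11) in overexpression. Npr3, a clearance receptor for natriuretic peptides, was at 3.03, 2.23 and 3.56 CPM in silencing, and at 17.2 to 23.5 CPM in the other 9 libraries, and Tmcc2 at 24.6, 25.9 and 32.2 CPM, against 168 to 222 CPM. Slc8a1, a sodium-calcium exchanger, had log2FC of −2.43 (SE 0.08) and −0.12 (95% interval −0.27 to 0.03), and Nefm, the medium neurofilament chain, −2.39 (SE 0.13) and −0.17 (−0.40 to 0.07).

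Doc2b, a calcium sensor of vesicle release, met the definitions of both classes, as did 16 other opposed genes. It was at 4.15, 4.74 and 5.90 CPM in silencing and 32.6, 39.4 and 41.9 CPM with the scrambled hairpin. It was at 41.6, 42.7 and 43.1 CPM with the cDNA and 39.5, 36.2 and 31.0 CPM with the empty vector, with no overlap. The fall of −2.93 (SE 0.13) stood beside a response of 0.26 (95% interval 0.04 to 0.48) to the cDNA, where a response in proportion to Dek would be above 2. Prkar2b, a regulatory subunit of protein kinase A, was similar, with −2.23 (SE 0.07) and 0.13 (0.00 to 0.26).

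On the other side, Sdc1, a heparan sulphate proteoglycan, was at 40.5, 45.9 and 36.0 CPM in silencing and between 4.94 and 9.0 CPM in the other 9 libraries. Its log2FC was 2.68 (SE 0.16) and −0.04 (95% interval −0.40 to 0.32). Scrt2, a neuronal transcriptional repressor, Plod1, a collagen-modifying lysyl hydroxylase, and Phlda3 and Pmaip1, targets of p53, had silencing log2FC between 1.89 and 2.22 and overexpression log2FC between −0.14 and 0.19. Plxnd1, a semaphorin receptor, needed both controls to be read. It was at 265, 298 and 295 CPM in silencing and 59.9, 71.7 and 72.8 CPM with the scrambled hairpin, but at 205, 222 and 211 CPM with the cDNA and 224, 214 and 208 CPM with the empty vector. The rise of 2.07 (SE 0.07) was measured from a scrambled control whose difference from the empty vector control was −1.66, so the silenced libraries were above the cDNA libraries by less than above their own control.

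**Figure D3:**
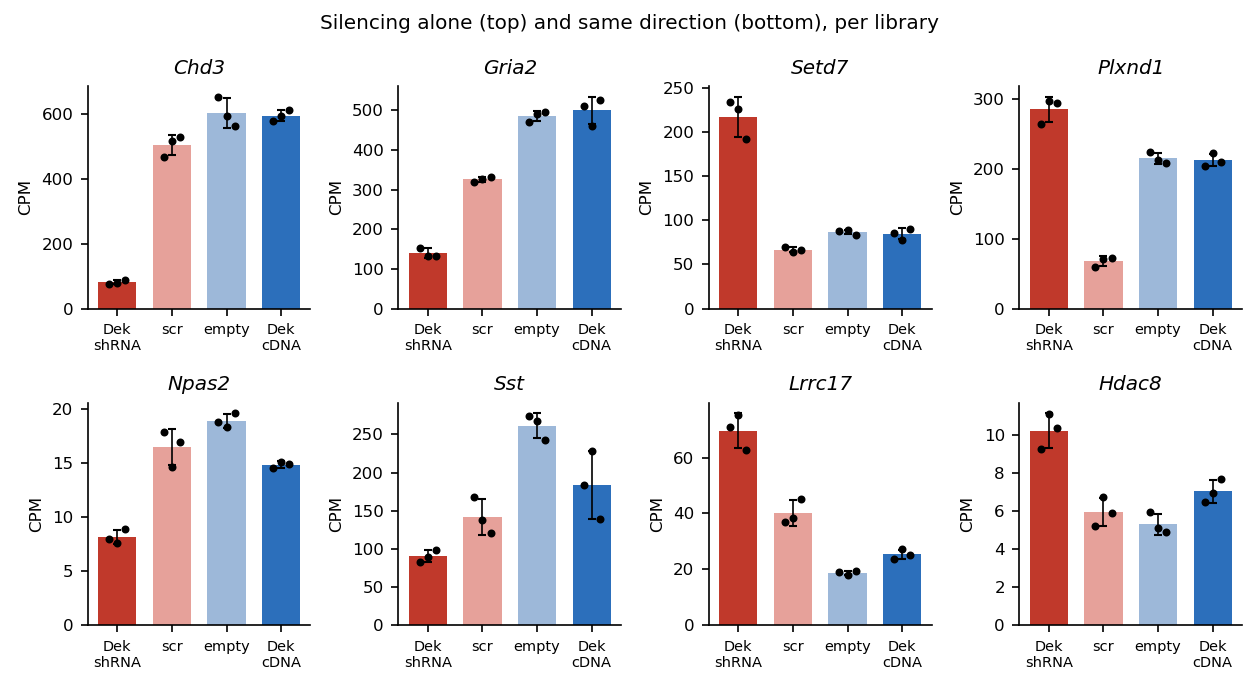
CPM (y axis, linear from 0, TMM-normalized) of 4 silencing-alone genes (top) and 4 same-direction genes (bottom) in the 4 groups (x axis), with bars for group means of 3 libraries, whiskers for 1 SD and a dot per library. In the top row the silenced libraries stand apart from their own control and the cDNA libraries overlap theirs, and in the bottom row both viruses lie on the same side of their controls, below for Npas2 and Sst and above for Lrrc17 and Hdac8.

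Candidate same-direction genes, called in silencing with an overexpression response of equal sign at an unadjusted p below 0.05, numbered 188 (1.29%; 109 lower, 0.746%, and 79 higher, 0.541%), and 90 lower and 100 higher with scaling by library size alone. Their values did not follow the sign of the change in Dek, but the smallest edgeR adjusted p of their overexpression responses was 0.848. No response to the cDNA is thus shown for any of them. In all 12 fits that left out 1 library, 27 of the 188 remained in the class, among them Sst, Npas2, Col7a1, Lrrc17 and Hdac8 of the 12 named by the rule, but not Txnip, Sgsh or Col11a2. With the correction for GC content and length, Col7a1 and Rwdd3 left the class. Sst, which encodes the interneuron peptide somatostatin, was at 83.2, 89.8 and 98.6 CPM in silencing and 167, 138 and 121 CPM with the scrambled hairpin. It was at 183, 228 and 139 CPM with the cDNA and 274, 268 and 243 CPM with the empty vector. Both viruses gave lower values than their controls, without overlap as the naming rule required. The log2FC was −0.65 (SE 0.17) and −0.51 (SE 0.17), with a difference of −0.14 (SE 0.24). Npas2, a circadian transcription factor, had −1.01 (SE 0.10) and −0.35 (SE 0.10), and Hdac5, a histone deacetylase named after its values were seen, −0.83 (SE 0.07) and −0.23 (SE 0.07). The collagen genes Col7a1 (−0.96 and −0.45) and Col11a2 (−0.71 and −0.49) were among the 6 lower genes that the rule named.

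Of the genes higher with both viruses, Lrrc17 was at 71.0, 75.3 and 62.8 CPM in silencing, 36.8, 38.2 and 45.4 CPM with the scrambled hairpin, 23.9, 27.2 and 25.2 CPM with the cDNA and 19.1, 18.0 and 19.3 CPM with the empty vector. Its log2FC was 0.80 (SE 0.08) and 0.43 (SE 0.09). Hdac8, a histone deacetylase on the X chromosome, was at 9.28, 11.1 and 10.4 CPM against 5.22, 6.73 and 5.92 CPM, and at 6.49, 6.99 and 7.70 CPM against 5.94, 5.10 and 4.91 CPM. Its groups did not overlap in either experiment, as the naming rule required, with log2FC of 0.79 (SE 0.13) and 0.41 (SE 0.14). Txnip, an inhibitor of thioredoxin that responds to glucose, had 1.22 (SE 0.19) and 0.78 (SE 0.29), from low levels in the cDNA experiment of 0.873 to 3.30 CPM. Sgsh, a lysosomal sulfatase, had 0.90 (SE 0.16) and 0.54 (SE 0.18).

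Immediate early genes are transcribed soon after neuronal activity, and many encode transcription factors. Of 35 tested, 15 were lower and 3 higher in silencing, beside 56.0% of all genes called in silencing. A called difference was seen in 13 (37.1%, beside 43.0% of all genes), 11 of them negative. In overexpression 1 was higher, Egr3, and 1 lower, Ier5, at an unadjusted p below 0.05, beside 2.18% and 2.87% of all genes. Egr1 was at 13, 19 and 16.4 CPM in silencing and 54.3, 60.5 and 59.5 CPM with the scrambled hairpin. It was at 74.6, 93.3 and 88.6 CPM with the cDNA and 95.1, 73.9 and 58.1 CPM with the empty vector, where the groups overlapped. Its difference was −2.02 (SE 0.25, edgeR adjusted p = 7.8e-05), with an overexpression log2FC of 0.18 and a wide 95% interval of −0.19 to 0.54. Npas4, which adjusts inhibitory synapses to activity, was at 27.7, 18.9 and 27.7 CPM against 112, 92.3 and 94.3 CPM, and at 163, 207 and 196 CPM against 215, 215 and 187 CPM. The log2FC of Npas4 in overexpression was −0.12 (95% interval −0.41 to 0.16) and its difference −1.89 (SE 0.20, adjusted p = 1.1e-05). Of 30 late activity-regulated genes tested, 6 had a called difference, all 6 positive, which is a smaller share than the 43.0% of all genes. In silencing 5 were higher and 5 lower, beside 27.9% and 28.1% of all genes. In overexpression 0 were higher and 5 lower at an unadjusted p below 0.05, beside 2.18% and 2.87% of all genes. The list's median log2FC was −0.12 in silencing and −0.22 in overexpression, beside 0.01 and −0.002 over all genes. Nptx2, a secreted pentraxin that gathers AMPA receptors, was at 16.1, 14.2 and 12.9 CPM with the cDNA and 18.9, 21.3 and 26.0 CPM with the empty vector, with no overlap. Its response was −0.61 (SE 0.26) and its silencing response −0.29 (SE 0.23, adjusted p = 0.31 by edgeR).

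The 4 AMPA receptor subunit genes were lower in silencing and had overexpression intervals that contained 0. Gria2, whose subunit limits calcium entry, was at 153, 132 and 132 CPM in silencing and 319, 327 and 331 CPM with the scrambled hairpin, and at 512, 461 and 527 CPM with the cDNA and 470, 492 and 495 CPM with the empty vector. The log2FC was −1.23 (SE 0.06) and 0.04 (95% interval −0.09 to 0.17). For Gria1, Gria3 and Gria4 the silencing log2FC was −0.43, −0.57 and −0.40 and the overexpression log2FC −0.01, 0.03 and −0.02, with intervals that stayed within −0.2 to 0.2. Each of the 4 differences passed the test (edgeR adjusted p = 3.5e-09 for Gria2 to 0.012 for Gria4). Among NMDA and metabotropic receptors, 6 of 12 had a called difference (50.0%, beside 43.0% of all genes), 3 in each direction. Grin1, the obligatory NMDA subunit, was a candidate opposed gene, at 0.27 (SE 0.05) and −0.14 (SE 0.05). Of 12 GABA-A receptor subunits, 2 had a positive and 2 a negative called difference (33.3%, below the share of all genes). Gabrd was at 1.25 (SE 0.08) and Gabrg1 at −1.98 (SE 0.11) in silencing, and they were at −0.11 and −0.07 in overexpression.

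Of 55 microtubule genes, 34 had a called difference (61.8%, beside 43.0% of all genes), 6 positive and 28 negative. Kif5a, a kinesin heavy chain, was at −1.19 (SE 0.05) in silencing and −0.03 (95% interval −0.13 to 0.08) in overexpression, and Mapre1, a protein of growing microtubule ends, at −1.06 (SE 0.06) and 0.01 (−0.10 to 0.13). Of 4 genes of the stathmin family, which bind tubulin, Stmn1 and Stmn2 were candidate opposed genes and Stmn3 and Stmn4 were not. Stmn1 was at 1546, 1489 and 1480 CPM in silencing, 1566, 1839 and 1782 CPM with the scrambled hairpin, 1677, 1822 and 1721 CPM with the cDNA and 1614, 1484 and 1473 CPM with the empty vector. Its responses were −0.20 (SE 0.06) and 0.19 (SE 0.06), equal in size and without overlap. Stmn2 was at −0.30 (SE 0.04) and 0.10 (SE 0.04), and Dctn1, the large dynactin subunit, went against Dek at 0.53 (SE 0.06) and −0.16 (SE 0.06). Mapt, which encodes tau, was at 0.14 (SE 0.05) in silencing and 0.01 (SE 0.05) in overexpression, and its difference did not pass the test (0.13, SE 0.06, adjusted p = 0.12 by edgeR). In fits that scaled by library size alone, kept genes of at least 5 CPM in 3 libraries or left out silencing replicate 3, the difference of Mapt passed, at 0.21, 0.16 and 0.16.

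Of 54 axon guidance and outgrowth genes, 34 had a called difference (63.0%, beside 43.0% of all genes; 10 positive and 24 negative), and 4 were candidate opposed genes. Rtn4, the neurite outgrowth inhibitor Nogo, was at −1.30 (SE 0.06) and 0.04 (SE 0.05), and Robo1, a receptor of the Slit ligands, at −1.35 (SE 0.09) and 0.06 (SE 0.08). The 4 candidates had small responses in both arms. Enc1, an actin-binding protein of neurons, was at −0.27 (SE 0.09) and 0.24 (SE 0.08), Slit1 at 0.17 (SE 0.07) and −0.17 (SE 0.07), Plxna4 at 0.19 (SE 0.06) and −0.16 (SE 0.06), and Sema7a at 0.27 (SE 0.06) and −0.13 (SE 0.06). The sum of the responses was −0.03 for Enc1 and 0.03 for Plxna4. Of 48 synaptic vesicle genes 22 had a called difference (45.8%), 6 positive and 16 negative, and of 47 long-term potentiation signalling genes also 22 (46.8%), 3 positive and 19 negative. Both shares were near the 43.0% of all genes.

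Of 20 cholesterol synthesis genes tested, 12 were lower in silencing with a negative difference (60.0%, beside 22.7% of all genes), and 0 were higher. In overexpression 0 reached an unadjusted p below 0.05 in either direction, beside 5.05% of all genes. Sqle, squalene epoxidase, was at 174, 174 and 145 CPM in silencing, 450, 462 and 428 CPM with the scrambled hairpin, 482, 498 and 480 CPM with the cDNA and 475, 491 and 473 CPM with the empty vector. The groups of the cDNA experiment overlapped and lay within 473 to 498 CPM. The list's median was −0.45 in silencing and 0.03 in overexpression.

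Among 42 chromatin remodellers, acetylation enzymes and readers, 26 had a called difference (61.9%, beside 43.0% of all genes; 4 positive and 22 negative). Setd7, a histone methyltransferase, went up with the hairpin alone, at 235, 227 and 192 CPM against 69.9, 64.2 and 66.0 CPM, and at 85.9, 78.3 and 90.5 CPM with the cDNA against 87.6, 89.3 and 83.8 CPM. The difference of Setd7 was 1.74 (SE 0.10, edgeR adjusted p = 5.0e-10). Of 36 autophagy genes 19 had a called difference (52.8%), 9 positive and 10 negative, and of 29 stress response genes 16 (55.2%), 11 positive and 5 negative, beside 43.0% of all genes. The neurofilament and pan-neuronal list had 1 positive and 6 negative differences of 11 (63.6%). The list of DEK partners and splicing factors had 3 and 4 of 13 (53.8%), also beside 43.0% of all genes. Over the 16 lists of function, which hold 479 distinct genes tested, 18 genes were candidate opposed (3.76%, beside 1.90% of all genes). Silencing-alone genes numbered 49 (10.2%, beside 5.40%). Both classes require a silencing call, and the lists were chosen with earlier results of these data known. The larger shares can therefore follow from that choice and are not read as a result. The lists' median overexpression log2FC ran from −0.22 to 0.04.

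**Figure D4:**
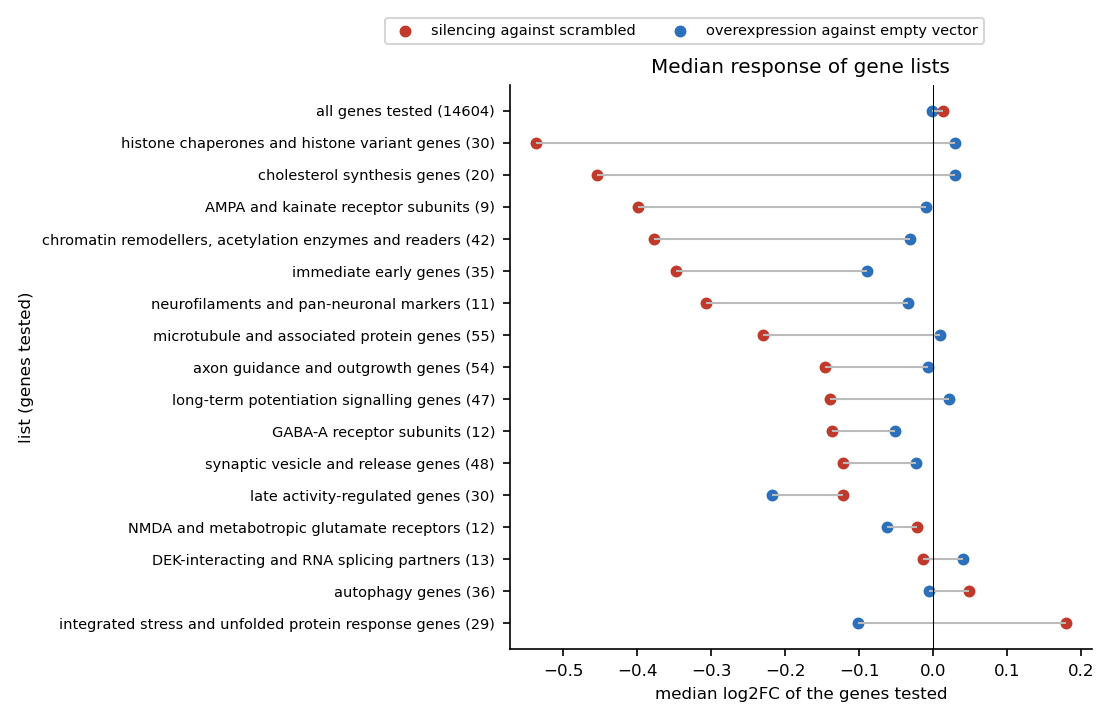
Median log2FC of the tested genes of each list of function and of all genes (x axis) in silencing (red) and overexpression (blue), with the number of genes tested beside each list's name (y axis). The silencing medians run from −0.54 for histone chaperones to 0.18 for stress response genes, while the overexpression medians lie between −0.10 and 0.04 except for late activity-regulated genes, at −0.22.

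The candidate genes differed by direction in a feature that their definition did not use, the GC content of their transcripts. The median GC content was 45.7% for candidate opposed genes lower in silencing and 56.3% for those higher in silencing, beside 50.1% for all genes. Among same-direction genes the median was 55.4% for lower and 48.4% for higher genes, and silencing-alone genes were at 49.1% and 52.0%. In the opposed and in the same-direction class alike, the genes higher with the cDNA thus had the lower median GC content. With the genes split into 5 equal bins of GC content, 50 opposed genes were lower and 9 higher in silencing in the lowest bin, and 4 were lower and 82 higher in the highest bin. The median log2FC of all genes moved with GC content in both arms, from −0.10 to 0.12 in silencing and from 0.03 to −0.06 in overexpression between the lowest and highest bin, and from −0.15 to 0.14 between the scrambled and empty vector controls. When GC content and length of the transcript were corrected for, an alternative chosen after seeing the data, 296 genes were candidate opposed, 160 lower and 136 higher in silencing, and 177 of them were among the 277. Of the 20 opposed genes named by the rule, Fam19a1, Grasp and Fam222a left the class. The part of GC content in the opposition was not tested beyond this.

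**Figure D5:**
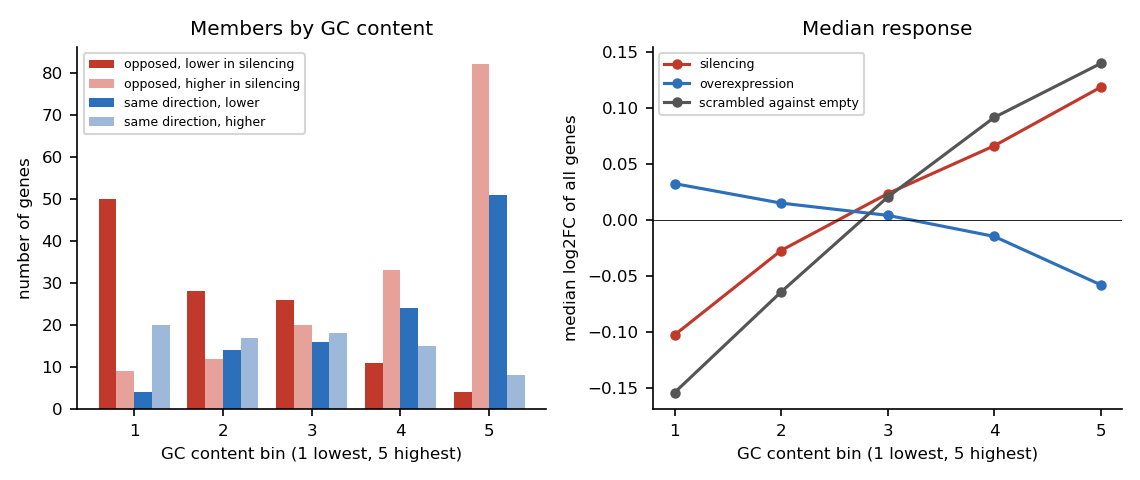
Left, number of candidate opposed and same-direction genes (y axis) in 5 equal bins of transcript GC content (x axis). Right, median log2FC of all genes (y axis) by the same bins for silencing (red), overexpression (blue) and scrambled against empty vector (grey). Opposed genes lower in silencing are most frequent in the lowest bin (50 genes) and those higher in silencing in the highest (82 genes), and the silencing and overexpression medians slope in opposite directions.

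The heptamer of the Dek site was counted in the same classes. Since it was picked in earlier work on these data, the shares are descriptions and do not test it. AAGAGGA, searched on the transcript strand only, was found in the 3′ UTR of 15.7% of genes tested that had one. It was in 40.9% of silencing-alone genes that were lower and 9.79% of those that were higher. The share was 21.9% for opposed genes lower in silencing and 22.2% for same-direction genes lower in silencing. Beyond a silencing log2FC of 1 it was 4 of 22 opposed genes (18.2%) and 9 of 21 same-direction genes (42.9%), beside 36.5% of all genes lower by more than 1. The median 3′ UTR length was 1696 bases for silencing-alone lower genes, 1276 for opposed lower genes and 1192 for all genes. Of the genes whose windows are printed above, Chd3 held 3 matches, Npr3 and Tmcc2 2 each, and Npas2 1. Named genes higher in silencing held it too, with 1 match each in Fam222a, Txnip and Sgsh. In Fam222a, 6 of the 14 bases outside the heptamer were the same as in Dek. A match is a run of letters and was not shown here to be a site of the hairpin.

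A difference was called for 162 genes that silencing alone did not call, 90 positive and 72 negative. Of these, 160 had responses of opposite sign, and 69 had an overexpression response at an unadjusted p below 0.05, 28 higher and 41 lower. Conversely, 2054 genes called in silencing had no called difference.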

How the data were processed

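The authors deposited estimated counts per gene for 12 RNA-seq libraries, made from 200 ng of RNA per well. Their processing notes name Salmon, DESeq2 and mm10, without versions, and the study's methods name fastp, STAR, edgeR and DESeq2. No scaling had been applied, and 38.6% of values were not whole numbers. They were rounded to whole numbers, genes were kept with filterByExpr, libraries were scaled by TMM, and 1 model of 4 groups was fitted with the robust quasi-likelihood test of edgeR 4.0.16 (R 4.3.3). CPM are TMM-normalized. A gene was called at p below 0.05 after Benjamini-Hochberg adjustment across the 14604 genes. The opposition test took the larger p of both responses where signs were opposite. The study compared 2 groups at a time, which was an alternative here. Code was tested on simulated data.

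Members and gene lists were chosen with earlier results of these data known. Named genes were Dek, genes called in overexpression by any tool, up to 10 opposed and 6 same-direction genes per direction with the largest smaller response (mean of at least 5 CPM, no overlap in either comparison), up to 10 silencing-alone genes per direction with the largest silencing response, genes the paper names for these libraries, the 4 members per direction with the smallest adjusted p in each list, and members of lists of 20 genes or fewer. Exceptions are marked. Candidates in lists (Enc1, Slit1, Plxna4, Sema7a, Stmn1, Stmn2, Dctn1, Prkar2b) and Atrx, Chaf1b and Nptx2 were also named after their values were seen. Transcript features came from GENCODE vM21 on GRCm38, 1 transcript per gene, and were found for 99.3% of genes. Antisense and overlapping genes may share reads, since no strand setting is given in the sources used here.

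Alternatives were size factors of DESeq2 1.42.0, library size alone, no count filter, a minimum of 5 CPM in 3 libraries, the replicate number as a block, the DESeq2 Wald test, limma-voom (limma 3.58.1), fits of 6 libraries, an overexpression p below 0.01, an interval within 0.3, weighting by Dek, the empty vector as control, each library left out and, added after the data were seen, a correction for GC content and length. Leaving out a library left 2 wells in its group, which was assumed to vary like the others.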

Additional observations from a re-analysis of the deposited data

How the results depend on the processing

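Dek was the 1 gene of the opposition test in each alternative, and 0 genes passed the test for equal signs. With edgeR and limma-voom both outcomes follow from the overexpression calls, which limit these tests. In overexpression the DESeq2 Wald test called 2 genes. The candidate classes rested on single libraries of the cDNA experiment. Leaving out 1 library gave 153 to 515 candidate opposed genes (153 without empty vector replicate 2, 155 without empty vector replicate 3, 515 without overexpression replicate 2) and 116 to 303 candidate same-direction genes (116 and 303 without the same libraries as for the lowest and highest count). It gave 5621 to 6332 differences, 7408 to 8355 silencing calls, 5409 to 6076 sums, 711 to 840 silencing-alone genes and 1 overexpression call. The cause was not tested. An overexpression p below 0.01 left 44 opposed and 32 same-direction genes, and an interval within 0.3 left 499 silencing-alone genes, fewer by construction. With the GC and length correction the opposed genes were 160 lower and 136 higher in silencing, against 120 and 157. The other alternatives, apart from the replicate block, stayed within 1.5 times of the counts reported. Of 1659 differences of 83 named genes under the alternatives, 1649 kept their direction and side of the threshold, 6 lost the call, 4 gained it and 0 reversed. The 6 were all of Lrrc17, at 0.30 to 0.35, without silencing replicate 2, scrambled replicate 1 or 2, overexpression replicate 1, or empty vector replicate 1 or 3. The 4 were 3 of Mapt and 1 of Col7a1, at −0.66 without scrambled replicate 3.

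The replicate block gave 290 candidate same-direction genes, 366 opposed genes and 6647 differences, and changed no call of a named gene. The labels number the wells of each group, but nothing says that a number marks a shared dissection. Deviations of same-numbered libraries correlated at 0.304, 0.133 and 0.07 in the hairpin experiment and at −0.024, −0.055 and −0.023 in the cDNA experiment, so the numbers were not taken to pair the wells, and not every library correlated best with its own number.

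With 3 wells a group, the median half-width of 0.208 limits what overexpression can show, since a response smaller than a gene's own half-width does not reach an unadjusted p below 0.05. For silencing log2FC beyond 1, 50.2% of genes had an interval within −0.5 to 0.5.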
